A study of Mus musculus with 21 samples.

Results

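Csrp1, Phlda3, Tnni1, Lad1, Tnnt2 and Pkp1 are neighbouring protein-coding genes on mouse chromosome 1, and their transcripts were followed in splenic CD4+ T cells after peptide immunisation, to ask whether neighbours moved together. These 6 genes were selected on the measured values, because several of them differed strongly between the groups of these same libraries, so their levels and fold changes are given as a description, with no test. Of the 6, 5 were found by name in the authors' log2 table, and Pkp1, which that table does not list, was located through the annotation. They are 6 of 47643 genes in the count table.

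The 21 libraries came from Tg4 Nr4a3-Tocky mice that also carry the Tiger allele, an Il10-GFP reporter, with 3 mice in each of 7 groups. Every cell donor, controls included, carried these alleles: Tg4 is a transgenic T cell receptor that recognises a peptide of myelin basic protein (MBP), and Nr4a3-Tocky is a transgene in which the Nr4a3 regulatory region drives a fluorescent Timer protein whose colour matures from blue to red, so that sorting on it kept the cells in which Nr4a3 had been switched on. The control group was untreated. The 4Y form of the MBP peptide was injected under the skin of the other 6 groups in PBS, with no adjuvant, at 0.8 µg or 80 µg, and spleens were taken after 4 h, 12 h or 24 h. Following the study's methods, the gate was Blue+Red- for the 4 h spleens, Blue+Red+ for those at 12 h and Blue-Red+ for those at 24 h. The sorting gate thus changed with time, and effects of time and gate cannot be told apart. The gate of the control cells is not given in the sources used here, and biological replicates were stained with different CD4 fluorochromes and sorted together. Ages of the mice are not given in the sources used here. Xist was above the Y-linked Ddx3y in 2 libraries and below it in 1 in the control, 4 h and 12 h groups, and above it in 1 and below it in 2 in both 24 h groups, so by these genes the doses were balanced at each time and the 24 h comparisons with the control were not.

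The 6 genes belong to different families. Lad1 encodes ladinin, an anchoring filament protein of epithelial basement membranes, and Pkp1 encodes a plakophilin of the desmosome, the junction that ties epithelial cells together. Tnnt2 and Tnni1 encode the cardiac T and slow skeletal I subunits of troponin, which makes the thin actin filament of muscle responsive to calcium. Csrp1 encodes a LIM-domain protein that binds the actin cytoskeleton through alpha-actinin and zyxin, and Phlda3 encodes a small pleckstrin-homology protein, a p53 target that restrains Akt.

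On GRCm38 with GENCODE vM21, and counting from 1, Csrp1 spans chr1:135720061-135752232, Phlda3 chr1:135766119-135769136, Tnni1 chr1:135779434-135810989, Lad1 chr1:135818598-135833342 and Tnnt2 chr1:135836354-135852260, all on the plus strand. Pkp1 spans chr1:135871395-135919207 on the minus strand. The gaps between successive genes were 13886, 10297, 7608, 3011 and 19134 bp, so Lad1 and Tnnt2 are the closest pair and lie head to tail. No exon of any of the 6 overlapped an exon of another annotated gene.

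The 250 bases before the RefSeq start of Lad1 (chr1:135818348-135818597), of the first Tnnt2 start (chr1:135836084-135836333) and of the first Csrp1 start (chr1:135719813-135720062), all on the plus strand of GRCm38.p6, are shown because these 3 genes carry the dose differences described next. Capitals mark a match to the NFAT core GGAAA, here on the minus strand.
Lad1: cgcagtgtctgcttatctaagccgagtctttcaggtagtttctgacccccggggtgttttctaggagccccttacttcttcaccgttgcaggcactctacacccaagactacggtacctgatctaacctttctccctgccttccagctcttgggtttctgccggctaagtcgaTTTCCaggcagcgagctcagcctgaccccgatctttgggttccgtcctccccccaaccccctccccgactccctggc
Tnnt2: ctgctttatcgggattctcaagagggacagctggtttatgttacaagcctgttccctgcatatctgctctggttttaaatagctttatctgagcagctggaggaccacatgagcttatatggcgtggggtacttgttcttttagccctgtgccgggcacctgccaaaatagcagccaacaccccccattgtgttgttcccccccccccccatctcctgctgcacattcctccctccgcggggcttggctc
Csrp1: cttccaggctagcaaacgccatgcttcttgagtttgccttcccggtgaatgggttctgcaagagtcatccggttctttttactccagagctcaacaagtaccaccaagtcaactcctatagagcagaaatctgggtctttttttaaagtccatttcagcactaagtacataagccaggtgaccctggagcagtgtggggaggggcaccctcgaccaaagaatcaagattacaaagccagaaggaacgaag

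Promoters were searched on both strands for AP-1 (TGANTCA), the NFAT core (GGAAA), EGR (GCGNGGGCG), the kappaB site, the CArG box and the TATA box (TATAAA). RefSeq gave 8 promoters for 5 of the 6 genes, with more than 1 start for Csrp1, Tnni1 and Tnnt2, and Pkp1 had no entry. AP-1, EGR, kappaB, CArG and TATA letters were found in none of the 8, and they are held by 6.75%, 4.70%, 3.90%, 1.47% and 12.4% of the 32851 promoters in the table. The NFAT core lay 77 to 73 bases before the Lad1 start, 217 to 213 bases before the second Csrp1 start, 211 to 207 bases before 1 of the Tnni1 starts and 243 to 239 bases before the second Tnnt2 start. It is held by 55.6% of all promoters. Matches are a description of letters in this window, and 3' tags do not show which start was used.

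RNA was measured by QuantSeq, which reads the 3' end of each mRNA, as counts per gene. Library totals ranged from 2352800 to 6244279 counts, and levels are given as normalised counts, that is counts divided by the DESeq2 size factor of the library. Markers of the labelled cell type were present: the summed level of Cd4, Cd3e, Cd3g, Cd3d, Trac and Lck lay between 1000 and 2509 CPM, counts scaled to the library total, in every library, all 6 with counts in every group. Of 10 muscle markers, Ckm, Myh6, Myh7, Myl2 and Mb were at 0 in all 21 libraries, and the list summed to 2.58 to 5.16 CPM in the 0.8 µg 4 h group, 13.4 to 23.0 CPM in controls and 30.4 to 55.5 CPM in the 0.8 µg 24 h group, where Ttn was its main gene. Of 7 epithelial markers, Krt5, Krt14 and Krt8 were at 0 throughout, and the list summed to 0.425 to 0.923 CPM in controls and to 2.01 to 5.64 CPM over the 4 h groups, mostly from Epcam. The summed B cell markers were 4.65 to 88.0 CPM, the myeloid markers 20.8 to 62.2 CPM and the CD8 markers 13.1 to 51.3 CPM. B cell sums were higher with 0.8 µg than with 80 µg at 4 h (26.4 to 47.9 against 15.5 to 23.8 CPM). At 24 h they were 22.8 to 40.8 against 9.93 to 16.0 CPM, and at 12 h the doses overlapped. CD8 sums were also higher with 0.8 µg, at 43.6 to 51.3 against 13.1 to 22.7 CPM at 12 h. At 24 h these were 34.3 to 40.9 against 20.1 to 28.8 CPM, and at 4 h the doses overlapped. Lad1 and Tnnt2 were also higher with 0.8 µg at these times. In controls, the B cell sums were 39.5 to 88.0 CPM and the CD8 sums 31.1 to 47.6 CPM. Lad1 and Tnnt2 averaged 0.732 and 0.448 CPM there. Erythroid and platelet markers varied most between libraries, from 3.69 to 157 CPM, mainly from the haemoglobin genes Hbb-bs and Hba-a1, with ranges that overlapped between doses at each time. The part of these lists in the results was not tested. In bulk RNA, fewer cells expressing a gene and less RNA per cell cannot be told apart.

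Lad1 and Tnnt2 were the neighbours with the widest range. In controls, Lad1 was nearly absent, with 2.06, 1.01 and 4.28 normalised counts (1 to 3 counts a library). At 4 h it stood at 1917, 1377 and 1747 normalised counts with 0.8 µg and at 344, 395 and 379 with 80 µg. All 6 of these libraries were far above the controls. At 12 h the values were 688, 535 and 749 with 0.8 µg and 86.8, 96.1 and 100.1 with 80 µg. At 24 h they were 81.8, 102 and 163 with 0.8 µg and 6.57, 14.7 and 4.93 with 80 µg. The highest 80 µg library was below the lowest 0.8 µg library at each of the 3 times, and within either dose every library was lower at each later time. In the order of the 7 groups, only the 0.8 µg 24 h group (116 ± 42.4, SD, n = 3) and the 80 µg 12 h group (94.3 ± 6.84) overlapped with the group next to them.

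Over the control, Lad1 was 755-fold higher with 0.8 µg at 4 h (95% exact interval 347 to 2058, for counting error only, as for all intervals here). With 80 µg at 4 h it was 166-fold higher (76.0 to 453), and with 80 µg at 24 h it was 3.87-fold higher (1.60 to 11.3). This last difference, 1.37 on the log2 scale, was 0.90 without control replicate 2 or without replicate 2 of the 80 µg 24 h group. Between doses, Lad1 was 4.55-fold lower with 80 µg at 4 h (4.27 to 4.86), 6.79-fold lower at 12 h (6.04 to 7.65) and 13.1-fold lower at 24 h (9.20 to 19.2). On the shrunken log2 scale, on which DESeq2 pulls uncertain changes towards 0, the dose differences were -2.16 (SE 0.18), -2.77 (SE 0.20) and -3.58 (SE 0.30). Fitted on only the 6 libraries compared, the shrunken 12 h and 24 h values were -2.54 and -2.35, so the wider difference at 24 h was not kept on that scale. The shrinkage is set anew in each such fit, and the folds from counts given above do not use it.

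Tnnt2, the next gene downstream, had 2.06, 1.01 and 1.43 normalised counts in controls, from 4 counts in all. At 4 h it stood at 616, 437 and 546 with 0.8 µg and at 77.5, 56.2 and 71.2 with 80 µg. As for Lad1, the 0.8 µg libraries at 4 h were the highest of all. At 12 h it had 36.3, 26.3 and 41.1 with 0.8 µg and 11.9, 0.734 and 0.972 with 80 µg. At 24 h it had 11.7, 7.46 and 14.5 with 0.8 µg, and no count in any of the 3 libraries with 80 µg. The doses did not overlap at any of the 3 times, and 1 of the 3 libraries given 80 µg held 13 of the 15 Tnnt2 counts of the 12 h group. In the order of group means, 0.8 µg at 24 h overlapped with 80 µg at 12 h, which in turn overlapped with the control, and no other neighbours in that order overlapped.

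Tnnt2 was 359-fold higher than the control with 0.8 µg at 4 h (140.04 to 1321) and 45.1-fold higher with 80 µg (17.4 to 167). With 80 µg it was 7.97-fold lower than with 0.8 µg at 4 h (6.88 to 9.26) and 7.77-fold lower at 12 h (4.51 to 14.4). At 24 h it was at least 14.4-fold lower, taken against a floor of 3 counts over the 80 µg group. The shrunken log2 dose differences were -2.93 (SE 0.26), -2.81 (SE 0.43) and -3.78 (SE 0.69). Without replicate 1 of the 80 µg 12 h group, which holds most of that group's Tnnt2 counts, the 12 h dose difference was -4.25, and with only the 6 libraries compared in the fit it was -1.13. The 24 h dose difference was -0.82 in that fit, under the fold threshold. Without that same library, the difference from control at 80 µg 12 h went from 1.05 to -0.34.

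**Figure D1:**
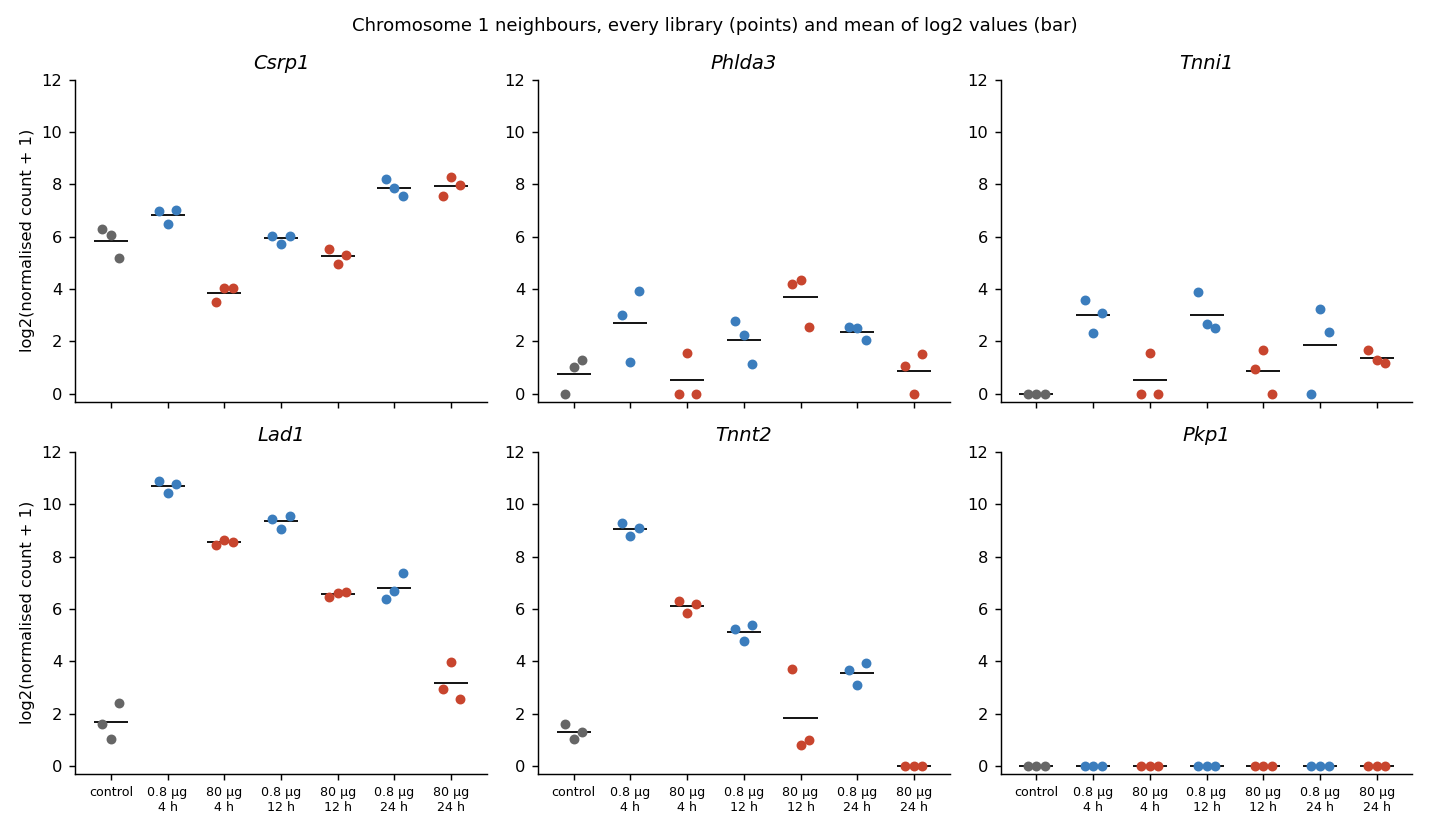
Levels of the 6 neighbours as log2(normalised count + 1), with 1 point per library, 3 libraries in each of 7 groups and a bar at the mean of the log2 values (grey control, blue 0.8 µg, red 80 µg). Lad1 and Tnnt2 peak with 0.8 µg at 4 h, Csrp1 is lowest with 80 µg at 4 h and highest at 24 h, and Pkp1 lies at 0 throughout.

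Tnni1, the other troponin gene, lies just upstream of Lad1 and was near the limit of detection, with 71 counts over 21 libraries and none in the controls. It had 11.1, 3.95 and 7.55 normalised counts with 0.8 µg at 4 h, 13.7, 5.27 and 4.70 at 12 h, and 0, 8.39 and 4.13 at 24 h. With 80 µg it had at most 3 counts in any library. Summed over the 3 mice, Tnni1 was at least 6.95-fold higher than the control with 0.8 µg at 4 h and at least 6.92-fold higher at 12 h, against a floor of 3 counts over the control group. The ratio of 80 µg to 0.8 µg was 0.0832 at 4 h (0.00946 to 0.340), from 2 and 21 counts. It was 0.147 at 12 h (0.0372 to 0.425) and 0.364 at 24 h (0.113 to 1.03). The doses did not overlap at 4 h and 12 h and overlapped at 24 h.

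Csrp1, the first gene of the row, followed another course. It had 77.3, 65.9 and 35.7 normalised counts in controls. At 4 h it stood at 125, 89.6 and 127 with 0.8 µg and at 10.4, 15.5 and 15.4 with 80 µg. The 80 µg libraries at 4 h were the lowest of the 21. At 12 h it had 64.7, 51.9 and 64.6 with 0.8 µg and 45.7, 30.1 and 38.9 with 80 µg. At 24 h it had 295, 231 and 186 with 0.8 µg and 186, 313 and 250.2 with 80 µg. The control libraries thus lay between the doses at 4 h, and at 24 h both doses were above the control and overlapped with each other. At 12 h the 0.8 µg group and the 80 µg group both overlapped with the control but not with each other.

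With 80 µg at 4 h, Csrp1 was 8.25-fold lower than with 0.8 µg (5.98 to 11.6) and 4.42-fold lower than in the control (3.15 to 6.34). With 0.8 µg at 4 h it was 1.86-fold higher than the control (1.54 to 2.27). At 12 h it was 1.58-fold lower with 80 µg than with 0.8 µg (1.26 to 1.99), and at 24 h the doses differed by 1.08-fold (0.981 to 1.19). At 24 h it was 3.84-fold (3.24 to 4.57) and 4.14-fold (3.51 to 4.91) above the control with 0.8 µg and 80 µg. Its shrunken log2 dose differences were -2.93 (SE 0.32) at 4 h, -0.65 (SE 0.28) at 12 h and 0.08 (SE 0.24) at 24 h, where the sign was the same in 11 of 13 alternative fits. The summed muscle markers were also higher at 24 h than at 4 h, and both 24 h groups held 1 more library with Ddx3y above Xist than the other groups. The part of either in the Csrp1 level was not tested.

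Phlda3 had 104 counts over 21 libraries and its highest level at another point, with 17.4, 19.1 and 4.86 normalised counts with 80 µg at 12 h. The controls had 0, 1.01 and 1.43. The 0.8 µg groups had 7.07, 1.32 and 14.0 at 4 h, 5.88, 3.76 and 1.17 at 12 h, and 4.87, 4.66 and 3.10 at 24 h, and the 80 µg groups had at most 3 counts a library at 4 h and 24 h. The ratio of 80 µg to 0.8 µg was 0.0832 at 4 h (0.00946 to 0.340), from 2 and 21 counts. It was 3.83 at 12 h (2.01 to 7.89), although the libraries overlapped, and 0.242 at 24 h (0.0576 to 0.785). At 12 h its direction was thus opposite to that of Lad1, Tnnt2 and Tnni1.

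Pkp1, on the other strand, had 0 counts in all 21 libraries, and was not detectable at this depth. A count of 0 in a library allows up to 3 counts of that library's total.

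**Figure D2:**
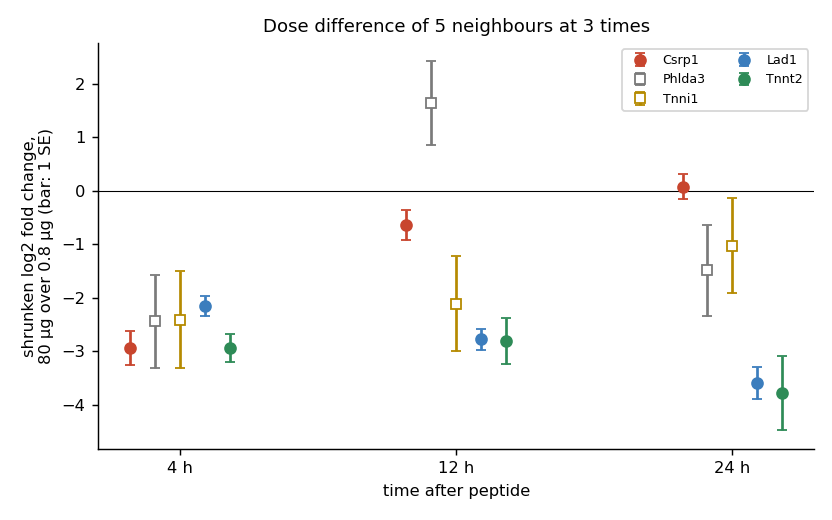
Shrunken log2 fold change of 80 µg over 0.8 µg at 4 h, 12 h and 24 h for the 5 detected neighbours, with bars of 1 SE from the fit to all 21 libraries, and open squares for the genes with few counts. All 5 values are below 0 at 4 h, Csrp1 moves from -2.93 to 0.08 by 24 h, and Lad1 and Tnnt2 reach -3.58 and -3.78.

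Calls across all genes tested required both a DESeq2 p under 0.05 after Benjamini-Hochberg adjustment and a shrunken log2 fold change of more than 1 in either direction. Because the rule that chose the genes used these contrasts, the counts of members called are set beside the background and nothing is read from them. Between doses, Csrp1, Lad1 and Tnnt2 were past both thresholds at 4 h, against 5.85% of all genes tested. Lad1 and Tnnt2 were past them at 12 h, against 2.79%, and at 24 h, against 1.56%. Lad1 and Tnnt2 were 2 of 12 genes that were lower with 80 µg at all 3 times, which is 0.124% of the 9663 genes tested at all 3. The other 10, named after their values were seen, were Cd160, Cxxc5, Egr1, Eno3, Eomes, Gm42778, Sfmbt2, Tnfrsf9, Trdc and Trib1. Phlda3 and Tnni1 had too few counts for an adjusted p in any comparison of doses.

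Against the control, with 0.8 µg, 4 of the 6 were past both thresholds at 4 h (background 40.7%), 3 at 12 h (37.7%) and 4 at 24 h (17.3%). With 80 µg, 3 were past them at 4 h (43.5%), 2 at 12 h (37.9%) and 3 at 24 h (20.2%). All of these were higher than the control, except Csrp1 with 80 µg at 4 h and Tnnt2 with 80 µg at 24 h, where the latter rests on 0 against 4 counts and was past the thresholds in 6 of 12 alternative fits. Phlda3 with 0.8 µg at 4 h was past them in 9 of 13, Tnni1 with 0.8 µg at 24 h in 8 of 12 and Lad1 with 80 µg at 24 h in 10 of 13. Between doses at 24 h, Tnnt2 was past them in 12 of 13. These 6 comparisons share their control libraries.

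The ratio of Tnnt2 to Lad1 was not constant across groups. 3' tags of these genes are counted per transcript end and are not scaled to length, so the ratio is compared only between groups. In the 4 groups where both genes had more than 3 counts in every library, Tnnt2 had 32.1, 31.8 and 31.3 counts per 100 Lad1 counts with 0.8 µg at 4 h. It had 22.6, 14.2 and 18.8 with 80 µg at 4 h, 5.27, 4.92 and 5.49 with 0.8 µg at 12 h, and 14.3, 7.34 and 8.86 with 0.8 µg at 24 h. None of the 4 groups overlapped with another except 80 µg at 4 h and 0.8 µg at 24 h, whose ranges met between 14.2 and 14.3. With 80 µg at 24 h, 34 Lad1 counts came with 0 Tnnt2 counts, which allows a ratio of up to 11.5 per 100 (upper 95% exact bound).

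**Figure D3:**
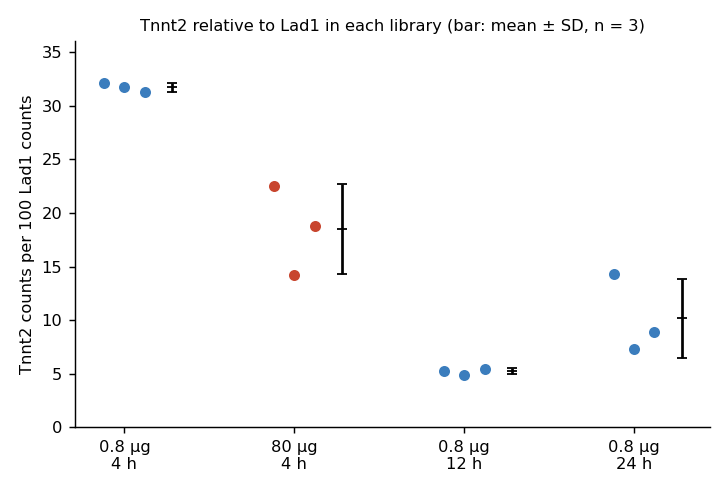
Tnnt2 counts per 100 Lad1 counts in each library of the 4 groups where both genes exceed 3 counts in every library, with the mean ± SD of 3 mice beside the points. The ratio is 31.7 ± 0.437 with 0.8 µg at 4 h, 18.5 ± 4.18 with 80 µg at 4 h, 5.23 ± 0.284 with 0.8 µg at 12 h and 10.2 ± 3.65 with 0.8 µg at 24 h.

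Profiles were compared as Pearson's r over the 7 group means of log2(normalised count + 1), among genes that averaged 20 or more normalised counts. These are descriptions over 7 points that share libraries, and carry no p. Lad1 and Tnnt2 had r = 0.89, which placed Tnnt2 at 199 of 8761 genes in likeness to Lad1 and Lad1 at 112 in likeness to Tnnt2. Csrp1 had r = -0.23 with Lad1 and -0.25 with Tnnt2, at places 5400 and 5483 in its own order. Tnni1, under the count minimum, had r = 0.71 with Lad1, 0.59 with Tnnt2 and 0.42 with Csrp1, and Phlda3 had 0.44, 0.20 and 0.14. On the deposited log2 values r was 0.90 for Lad1 and Tnnt2, -0.26 for Csrp1 and Lad1 and -0.21 for Csrp1 and Tnnt2.

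As background for the pair, neighbouring genes over the whole genome that passed the same minimum had a median r of 0.13 (quartiles -0.48 and 0.66, 8731 pairs), and 8.84% had r at or above that of Lad1 and Tnnt2. Among 1320 neighbouring pairs on 1 strand and under 10 kb apart, like Lad1 and Tnnt2, the median was 0.33, and 208 pairs (15.8%) were at or above it. Of neighbouring pairs tested between doses at 4 h, 98 of 10805 (0.907%) had both genes called in 1 direction, and the number was 22 of 11098 at 12 h and 4 of 9629 at 24 h.

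The 5 genes most like each of these 3 members in profile lay on several chromosomes. For Lad1 they were Serp1, Trib1, Bzw2, Tnfrsf9 and B130021K23Rik (r from 0.97 to 0.99), among them Tnfrsf9, the 4-1BB co-stimulatory receptor. For Tnnt2 they were Hook1, Trp53bp1, Zmiz2, Atp9b and Dnmt3a (r from 0.97 to 0.98), the last a de novo DNA methyltransferase. For Csrp1 they were Tbl1xr1, Cyba, H2-T24, Stard4 and Ddx3y (r from 0.94 to 0.96), where the level of the Y-linked Ddx3y also follows the sex of the mice in a group. None of the 15 lies on chromosome 1.

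The spread between mice of 1 group was not used to choose the genes, so it was tested. Deviations from the group mean of log2(normalised count + 1) were pooled over groups in which both genes had a mean of at least 20, and 2 of 10 pairs had the 3 groups that the test needs. For Lad1 and Tnnt2, over 9 mice of 3 groups, Pearson's r was 0.70 (two-sided exact permutation p = 0.0926, adjusted p = 0.185) and Spearman's rho was 0.70 (exact permutation p = 0.134, adjusted p = 0.269). Without the 2 mice farthest from the median of Lad1, r was 0.15, so the size of r depends on those mice. Over 6 alternatives it ranged from 0.44 without replicate 2 of every group to 0.84 without replicate 1. For Csrp1 and Lad1, over 12 mice of 4 groups, r was -0.20 (exact permutation p = 0.691, adjusted p = 0.691) and rho was -0.07 (exact permutation p = 0.880, adjusted p = 0.880), and r was -0.09 without the 2 farthest mice. Leaving out 1 replicate number in every group gave an r of 0.19 without replicate 1, -0.98 without replicate 2 and 0.24 without replicate 3. A shared deviation within groups was therefore not shown for either pair.

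Other genes in the row or within 500 kb on either side, here called flanking genes, were chosen by position alone, so their changes were tested. Among them, Gm28883 lies between Tnnt2 and Pkp1, and Gm36938 lies within the span of Pkp1. Of 36 annotated flanking genes, 17 had no count in any library and 14 had at least 10 counts. Against the control, 5 of 10 tested were called with 0.8 µg at 4 h and 5 of 10 with 80 µg, beside the 40.7% and 43.5% of all genes. At 12 h it was 3 of 10 and 3 of 11, beside 37.7% and 37.9%, and at 24 h 3 of 10 and 2 of 10, beside 17.3% and 20.2%. Between doses, 0 of 8 tested were called by DESeq2 at each of the 3 times, beside 5.85%, 2.79% and 1.56% of all genes. At an unadjusted p under 0.05, 4 flanking genes passed between doses at 4 h, 2 at 12 h and 0 at 24 h, and edgeR called 1 at 4 h (Camsap2), 0 at 12 h and 0 at 24 h.

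Timm17a (chr1:135295213-135313778), a subunit of the mitochondrial inner membrane import machinery, rose from 108 ± 17.6 normalised counts in controls to 399.9 ± 19.0 at 0.8 µg 4 h and 513 ± 46.9 at 80 µg 4 h (log2 fold changes 1.89 and 2.24, SE 0.16 for each, adjusted p = 1.88e-30 and 1.12e-43). The 12 h levels were 474 ± 38.1 with 0.8 µg and 463 ± 23.5 with 80 µg. Those at 24 h were 126 ± 20.7 and 117 ± 28.4, and it was not called there. Gm4204 (chr1:135231995-135233225), a processed pseudogene, whose reads can be shared with its parent gene, rose in all 6 comparisons, from 9.52 ± 4.57 to between 38.4 ± 10.9 and 78.0 ± 12.4.

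On the other side of the row, Kif21b (chr1:136131389-136177998), a kinesin motor, fell from 954 ± 58.6 to 109.5 ± 3.66 with 0.8 µg and 144 ± 28.1 with 80 µg at 12 h (log2 fold changes -3.11 and -2.71, SE 0.14 and 0.13, adjusted p = 2.93e-109 and 8.98e-92). Tmem9 (chr1:136008150-136035342), a lysosomal membrane protein, fell at 4 h from 35.1 ± 7.12 to 4.75 ± 2.97 with 0.8 µg and 6.59 ± 3.21 with 80 µg (log2 fold changes -2.69 and -2.22, adjusted p = 1.83e-07 and 1.42e-06). Ddx59 (chr1:136415271-136440158), an RNA helicase gene whose exons overlap those of 9230116N13Rik on the other strand, fell from 20.6 ± 7.52 to 3.15 ± 1.84 and 4.34 ± 4.38 at 4 h (adjusted p = 0.00207 and 0.00548). Rnpep (chr1:135262712-135284084), an aminopeptidase, fell with 80 µg at 4 h, from 59.3 ± 14.7 to 27.4 ± 7.24 (adjusted p = 0.000341). Ddx59 lost its call at 80 µg without replicate 3 of the 80 µg 4 h group (-1.52, adjusted p = 0.0540), and Rnpep fell under the fold threshold without control replicate 3 (-0.86) or replicate 1 (-0.89) or 2 (-0.99) of the 80 µg 4 h group. The other flanking gene called was Ipo9, outside the limit of 6 for named genes and named after its values were seen, which rose at 24 h from 83.6 ± 15.4 to 173 ± 41.6 with 0.8 µg and 170.1 ± 18.4 with 80 µg. These log2 fold changes of 1.03 and 1.00 were at the fold threshold and past it in 9 of 13 and 8 of 13 alternative fits, falling to 0.95 and 0.92 without control replicate 1, 0.96 and 0.93 without control replicate 3, 0.90 and 0.96 without replicate 1 or 2 of the 0.8 µg group, and 0.93 and 0.996 without replicate 1 or 3 of the 80 µg group. Downstream of the row, the 3 genes called against the control fell, and upstream of it Timm17a, Gm4204 and Ipo9 rose and Rnpep fell.

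Nav1 and Camsap2 were picked out after their values were seen. Nav1 (chr1:135434580-135607295), a neuron navigator gene and the nearest one upstream of Csrp1 with at least 10 counts, had 9 counts with 0.8 µg and none with 80 µg at 4 h, at least 3.43-fold lower against a floor of 3 counts over the group, and had no adjusted p. Its 0.8 µg libraries had 3.03, 7.90 and 0 normalised counts, so the doses overlapped. Camsap2 (chr1:136268123-136346104), a protein of microtubule minus ends, had the profile least like that of Csrp1 of all 8761 genes (r = -0.99). At 4 h it had 129, 103 and 152 normalised counts with 0.8 µg and 206, 278 and 283 with 80 µg. This log2 fold change of 0.99 (SE 0.20, adjusted p = 3.01e-05) was just under the fold threshold. At 24 h it had 93.0 ± 22.7 and 96.0 ± 24.3, below the control's 157 ± 20.9 (log2 fold changes -0.75 and -0.72). Exons of Camsap2 overlap those of Gm26781, exons of Nav1 overlap those of Gm38399 and Gm4793, and exons of Rnpep overlap those of Gm26642, and the counting may not separate them.

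**Figure D4:**
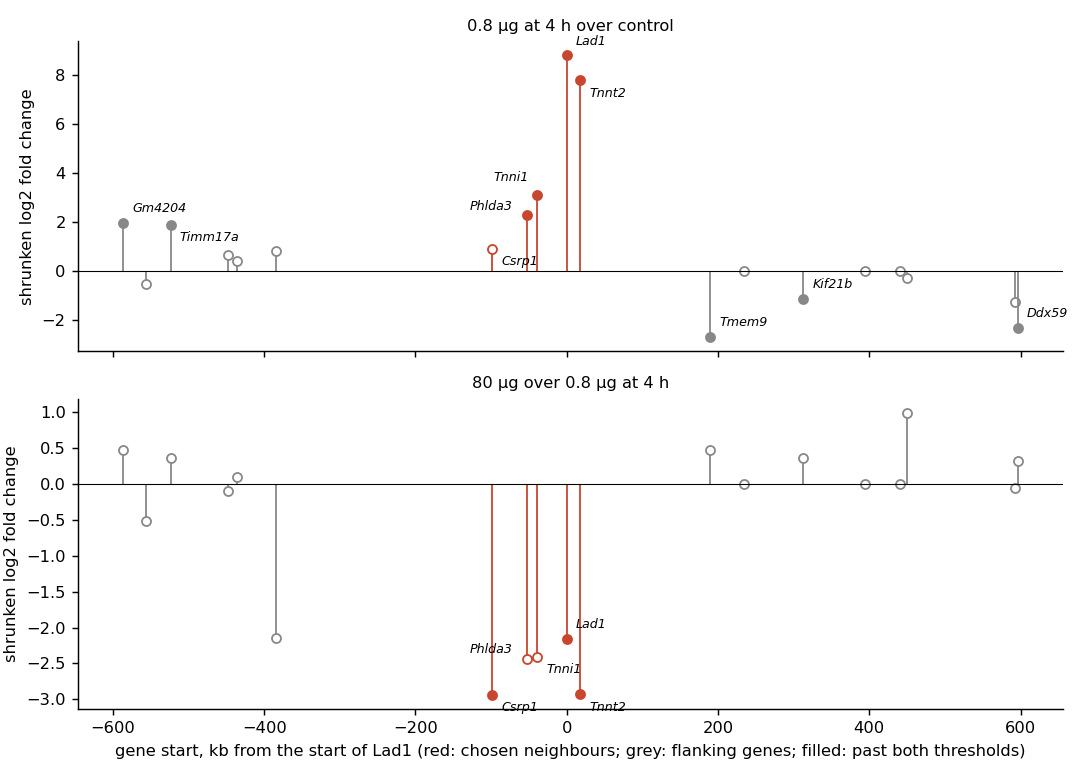
Shrunken log2 fold changes of the 19 genes with at least 10 counts, by the distance of the gene start from that of Lad1 in kb, for 0.8 µg at 4 h over control (upper) and 80 µg over 0.8 µg at 4 h (lower), with red for the chosen neighbours, grey for flanking genes and filled circles for genes past both thresholds. Lad1 and Tnnt2 stand at 8.79 and 7.77 in the upper plot, and in the lower plot the filled circles are Csrp1, Lad1 and Tnnt2.

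**Figure D5:**
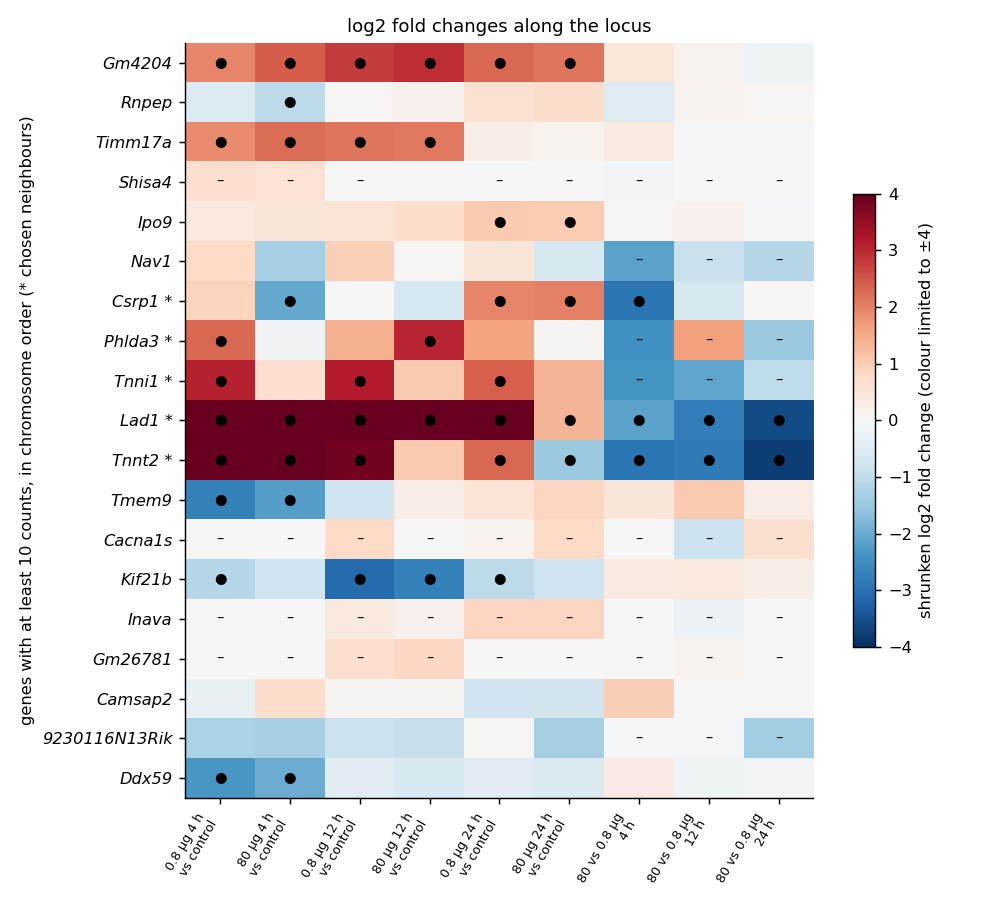
Shrunken log2 fold changes of the same 19 genes, 1 row a gene in chromosome order (asterisks mark the chosen neighbours), in 9 comparisons, with colour limited to 4 on either side of 0, dots for calls and dashes where DESeq2 gave no adjusted p. Dots in the 3 dose columns lie only in the rows of Csrp1, Lad1 and Tnnt2, and of the 6 control columns, 80 µg at 24 h holds flanking dots only above the row of neighbours (Gm4204 and Ipo9).

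Relatives of the members elsewhere in the genome were followed in 4 lists. The thin filament and troponin list held 18 genes, of which 13 had at least 10 counts. Against the control, 0 were higher and 3 lower of 9 tested with 0.8 µg at 4 h, beside the 40.7% of all genes called. Between doses 1 of 6 was higher and 0 lower at 4 h, beside 5.85%, with a median log2 fold change of 0.01 beside -0.02 over all genes tested. The gene between doses was Neb, nebulin, which stood at 8.07 ± 3.41 normalised counts with 0.8 µg and at 82.7 ± 22.0 with 80 µg, a log2 fold change of 3.17 (SE 0.38, adjusted p = 6.48e-14), in the direction opposite to Tnnt2 and Tnni1. Its control level was 51.6 ± 24.4, so with 0.8 µg at 4 h Neb fell (log2 fold change -2.52, adjusted p = 1.17e-09), while 80 µg at 4 h gave 0.65 over the control and was not called (adjusted p = 0.0513). Neb was also higher with 80 µg than with 0.8 µg at 12 h and 24 h. Of the troponin T paralogues, Tnnt1 rose with 0.8 µg at 24 h, from 14.7 ± 8.44 to 47.4 ± 10.2 (log2 fold change 1.59, adjusted p = 0.00433), and Tnnt3 fell with 80 µg at 4 h, from 22 counts to 1 (adjusted p = 0.00392). Tmod1, which caps actin filaments, had 43 counts with 0.8 µg at 12 h and 0 in the control, at least 11.9-fold higher (adjusted p = 0.00804). Tmod1 lost its call without replicate 2 of the 0.8 µg 12 h group (2.51, adjusted p = 0.0512), and Tnnt1 lost its call without control replicate 2 (1.20, adjusted p = 0.0548).

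The LIM list, relatives and partners of Csrp1, held 15 genes, of which 13 were tested against the control. With 0.8 µg at 4 h, 0 were higher and 5 lower (median -1.38 beside -0.13 over all genes), and with 80 µg 0 were higher and 6 lower (median -1.27 beside -0.15). Over all genes, 40.7% and 43.5% were called in these comparisons, close to the 5 and 6 of 13 here. Crip1, a small LIM protein, fell from 612 ± 76.0 to 47.1 ± 12.7 with 0.8 µg at 4 h (log2 fold change -3.69, SE 0.18, adjusted p = 6.89e-94), a comparison in which Csrp1 was above the control. Pdlim4, an actin-associated PDZ and LIM protein, fell from 241 ± 45.5 to 2.61 ± 2.78 with 80 µg at 4 h (log2 fold change -5.68, adjusted p = 8.74e-15), and Lims1, the focal adhesion adaptor PINCH, fell with 0.8 µg at 4 h (log2 fold change -2.26). Csrp2, a paralogue of Csrp1, rose with 80 µg at 24 h from 2 to 65 counts (log2 fold change 3.17, adjusted p = 0.00328). Csrp2 was also called higher than the control with 0.8 µg at 12 h and at 24 h. Between doses, 0 of 12 were called at 4 h and at 12 h, and 2 of 9 were higher at 24 h, Crip1 and Pdlim4, beside 5.85%, 2.79% and 1.56% of all genes at the 3 times.

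The list of plakophilins, desmosome and hemidesmosome genes held 17 genes, of which 10 had at least 10 counts. With 0.8 µg at 4 h 1 of 10 was higher and 4 were lower, and with 80 µg 1 was higher and 6 lower, beside the 40.7% and 43.5% of all genes called. The medians were -1.26 and -1.76, beside -0.13 and -0.15. Itga6, the integrin subunit of hemidesmosomes that naive T cells also carry, fell from 858 ± 38.3 to 14.2 ± 6.30 with 0.8 µg at 4 h (log2 fold change -5.78, SE 0.25, adjusted p = 5.03e-106). Plec, the cytolinker plectin, fell from 509 ± 26.5 to 43.6 ± 12.1 with 80 µg at 4 h (log2 fold change -3.51, adjusted p = 7.54e-48), and Jup, plakoglobin, fell from 28 counts to 0 in the same comparison, at least 10.8-fold lower. The control level of Jup was 9.85 ± 8.70, and its log2 fold change of -3.10 was -2.21 without control replicate 1. Perp, a p53 target of desmosomes, rose with 80 µg at 12 h from 0 to 79 counts, at least 20.1-fold (adjusted p = 2.57e-05). Between doses 1 of 8 was lower with 80 µg at 4 h, Plec, and none was called at 12 h or 24 h, beside 5.85%, 2.79% and 1.56% over all genes at 4 h, 12 h and 24 h.

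The list of PHLDA and p53 target genes held 22 genes, of which 20 were tested against the control, and they moved in both directions. With 0.8 µg at 4 h 7 were higher and 8 lower, and with 80 µg at 12 h, where Phlda3 was highest, 5 were higher and 5 lower (median 0.46 beside -0.11 over all genes). Of all genes, 40.7% and 37.9% were called in these comparisons. Cdkn1a, the cell cycle inhibitor p21, rose with 80 µg at 12 h from 1.64 ± 1.47 to 79.4 ± 54.3 (log2 fold change 4.86, SE 0.62, adjusted p = 1.29e-10). In the same comparison, Sesn1, sestrin 1, fell from 272 ± 41.5 to 12.0 ± 5.47, a log2 fold change of -4.41 (adjusted p = 9.80e-38). At 0.8 µg 12 h, Trp53inp1 fell from 522 ± 16.1 to 9.20 ± 1.93, a log2 fold change of -5.51 (adjusted p = 1.85e-36), and Bbc3, the death gene Puma, fell from 145 ± 48.3 to 5.09 ± 4.14, one of -4.14 (adjusted p = 1.47e-08). The Bbc3 value was -4.86 without replicate 2 of the 0.8 µg 12 h group. Between doses, Cdkn1a was higher with 80 µg at all 3 times, and 2 of 19 tested genes were called higher at 4 h, 2 of 20 at 12 h and 1 of 18 at 24 h, with 0 lower at any of these times, beside calls for 5.85%, 2.79% and 1.56% of all genes. Trp53inp1 was the other gene called at 4 h and 12 h.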

How the data were processed

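Splenic CD4+ T cells were profiled by QuantSeq 3' mRNA sequencing, per the labels. The authors aligned reads with STAR 2.5.2a to mm10 and counted reads per gene with HTSeq, and both the raw counts and their rlog values, on a log2 scale, were deposited. The strand setting of the counting is not given in the sources used here. From the counts, DESeq2 1.42.0 in R 4.3.3 fitted 7 groups over 21 libraries with Wald tests and shrunken log2 fold changes, as in the study, for genes with at least 10 counts in all. The rlog values served to check profiles. edgeR 4.0.16, other size factors and filters, the replicate number as a block and leaving out each library were alternatives. Genes and lists were chosen with earlier results of these data known. Named genes were the 6 members, up to 6 called flanking genes, up to 4 called genes a list, both by absolute fold change, and the 5 most like each member. All 21 library columns were used. The Wald p-values rest on the spread between mice within groups of 3, estimated over all 7 groups together. Fits were tested on simulated data with the same spread for every gene and changes placed only in well-counted genes, so low counts were not covered. Library totals were 2352800 to 6244279 counts, and exact intervals (95%) cover counting error only.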

Additional observations from a re-analysis of the deposited data

Results flagged for a closer look

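A likelihood ratio test in DESeq2 over the 18 immunised libraries asked whether the dose effect changed with time in the 8 flanking genes tested, and Camsap2 was singled out because it passed. The shrunken log2 fold change of 80 µg over 0.8 µg spanned 0.99, from 0.99 at 4 h to -0.0037 at 12 h and 0.03 at 24 h (adjusted p = 0.0110). The adjusted p was 0.0148 with edgeR, 0.0202 with the replicate number as a block, and 0.0398, 0.409 and 0.217 without replicate 1, 2 or 3 of every group. This is 1 of 8 flanking genes, close to the 1035 of 10037 genes (10.3%) that passed over the whole table. The members were chosen on dose differences in these libraries, so this test is not given for them. The sorting gate changed with time, and effects of time and gate cannot be told apart. Groups of 3 libraries were not searched for a library that lies far from the others.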

How the results depend on the processing

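For the 45 fold changes of the members, 507 of 570 alternative values lay within 1 SE of the value given. Of the 26 that passed both thresholds, 5 fell short in at least 1 alternative, in 18 of 334 values, and none of these changed sign. Of the others, 6 values passed the thresholds and 14 changed sign or went to 0. Over the other 68 results and 776 alternative values, 740 kept their direction and side of the threshold or moved by less than the stated spread, 19 lost their call, 15 moved and 2 changed sign. With only the 6 libraries compared in the fit, genes called between doses numbered 145 at 12 h, against 311, and 83 at 24 h, against 151, and flanking genes called with 80 µg at 24 h over control numbered 1, against 2. Flanking genes called between doses numbered 1 at 4 h with edgeR and 1 at 12 h with at least 10 counts in 3 samples, against 0. Leaving out 1 library, flanking genes called over control ranged from 1 to 3 with 0.8 µg at 24 h (1 without its replicate 1) and from 1 to 2 with 80 µg at 24 h, and between doses from 0 to 1 at 4 h and at 12 h. Leaving out 1 replicate number in every group, the genes whose dose effect changed with time ranged from 368 to 758, against 1035, and r of the within-group deviations of Csrp1 and Lad1 ranged from -0.98 to 0.24, with 0.19 without replicate 1 and 0.24 without replicate 3. Fewer libraries enter these fits, and the cause of the other shifts was not tested. The Tnnt2 dose difference at 24 h was -6.54 with edgeR, against -3.78. Pairing of the mice by replicate number was not shown. In 0 of 9 comparisons was every correlation of same-numbered deviations over 0.1 (from -0.17 to 0.21), a rule that cannot exclude pairing. With the replicate number as a block, the 4 h dose difference of Lad1 was -2.15, and genes called between doses at 4 h numbered 611, against 635. Low counts limit Tnni1 and Phlda3, with 71 and 104 counts in all.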
